A study of Rattus norvegicus with 6 samples.

Results

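The neurofilament and growth cone genes described here are Ina, Nefl, Nefm, Nefh, Gap43, Stmn2, Stmn3, Thy1 and Uchl1, a list of 9 genes. Their probes were found by the RefSeq transcript accession that the scanner files give for each probe, with the version removed. This gave 9 probes for 7 of the 9 genes, out of 4013 genes that could be named on the array. Gap43 and Stmn2 have 2 probes each, and no probe could be assigned to Nefh or Stmn3, which are not analysed here. Probe Thy1 GE1298961 was near background on every array, so 8 probes of 6 genes entered the test between groups.

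The rats were male Sprague Dawley adults, 5 months old, and the tissue was the substantia nigra pars compacta, isolated by laser capture microdissection. In the rotenone group, a subcutaneous osmotic pump released rotenone at 0.5 mg/kg/day over 28 days (3 rats). Rotenone blocks complex I of the mitochondrial respiratory chain. In the solvent group, the pump held the vehicle alone, a mixture of dimethylsulfoxide and polyethylene glycol with the surfactant Pluronic F-127, for the same 28 days (3 rats). All 6 rats thus carried the pump, the vehicle and the ketamine and xylazine anaesthesia of the implantation. Each rat gave 1 single-colour array, and the comparison asks whether chronic low rotenone alters gene expression in this region. The pump model exposes the whole animal, and laser capture of a region takes neurons together with the glia and vessels around them.

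Neurofilaments are the intermediate filaments of axons and set axon calibre. They are built from a light chain (Nefl), a medium chain (Nefm) and a heavy chain (Nefh), together with alpha-internexin (Ina), which forms filaments earlier in development and stays in many adult central neurons. Gap43 and the stathmin Stmn2 mark the growth cone: Gap43 is a membrane-bound substrate of protein kinase C that binds calmodulin, and Stmn2 binds tubulin and destabilises microtubules. Thy1 is a lipid-anchored surface glycoprotein of neurons, and Uchl1 is a ubiquitin hydrolase that is abundant in neurons and has been studied in Parkinson disease. In dopamine neurons, whose long branched axons end in the striatum, the messenger RNA of these genes lies mainly in the cell bodies, which the captured region holds.

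The probe sequences are not part of the files used here. Of the 9 genes, 3 are in the RefSeq promoter table (GRCr8). Ina, which had the largest difference among the filament genes, is the only filament gene among these 3. The 250 bases before its start are shown. They lie at chr1:255837879-255838128 on the plus strand. Capitals mark the E-box (CANNTG) and the GC boxes (GGGCGG), each searched on both strands.

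Ina: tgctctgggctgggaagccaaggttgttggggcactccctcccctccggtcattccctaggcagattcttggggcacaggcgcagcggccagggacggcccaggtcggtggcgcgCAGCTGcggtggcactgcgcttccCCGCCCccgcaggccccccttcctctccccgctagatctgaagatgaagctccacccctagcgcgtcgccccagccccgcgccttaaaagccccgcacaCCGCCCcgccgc

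The window holds 1 E-box, and 65.5% of 33469 promoter windows of the same length hold at least 1. It also holds 2 GC boxes, where 30.5% of the windows hold at least 1. TATAAA (in 12.9% of windows) and CCAAT (in 34.0%) are not among its letters, and the marked motifs do not overlap each other. G and C make up 70.8% of its bases, against a median of 51.2% over all windows. These matches describe the letters of the window, and binding to them was not tested.

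The array of rotenone rat 16 stood apart from the others before any gene was considered. Across probes it correlated with the rest at a mean r of 0.931, where the other 5 arrays had 0.956 to 0.964. Its median net signal of 11.7 was the lowest (13.9 to 16.6 in the others), and 44.2% of its probes were above background, against 48.6% to 51.5%. The tissue label was checked against Th, which makes dopamine, and the dopamine transporter Slc6a3. Probe Th GE1254069 lay between 12.48 and 13.09 on the normalized log2 intensity scale over the 6 arrays and Slc6a3 GE1176496 between 12.45 and 12.82. Snap25 was near background on every array, and of the other general neuron markers with a probe, Camk2a was above background on 1 array and Camk2b on 2.

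limma's moderated test, fitted across all 16708 probes with Benjamini-Hochberg adjustment, called none of the 8 tested probes at an adjusted p of 0.05, and 0% of all probes. All 8 had a lower mean with rotenone, against 48.4% of all probes and 55.1% of the tested probes with a gene name. Gap43 and Stmn2 count with 2 probes each among the 8. The unadjusted p was below 0.05 for 3 of them, Ina and both Gap43 probes, each lower, where 2.95% of all probes were lower at that level and 4.94% were so in either direction. Without rotenone rat 16, none of the 8 had an unadjusted p below 0.05, where 563 of all 16708 probes did in either direction. In that setting 6 of the 8 had a lower mean. Of those, Uchl1 and the brighter Stmn2 probe were close to no difference, at -0.03 each. The median over all probes was then 0.002. Over the 6 tested genes, taking the brighter probe of a gene, the median log2 difference was -0.28, and -0.03 without rotenone rat 16. With all 6 rats the median was 0.01 over all probes, which the normalization holds near 0, and -0.02 over all named genes. The groups of 3 did not overlap at 1 of the 8 probes, where 4.89% of all probes were lower without overlap.

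**Figure D1:**
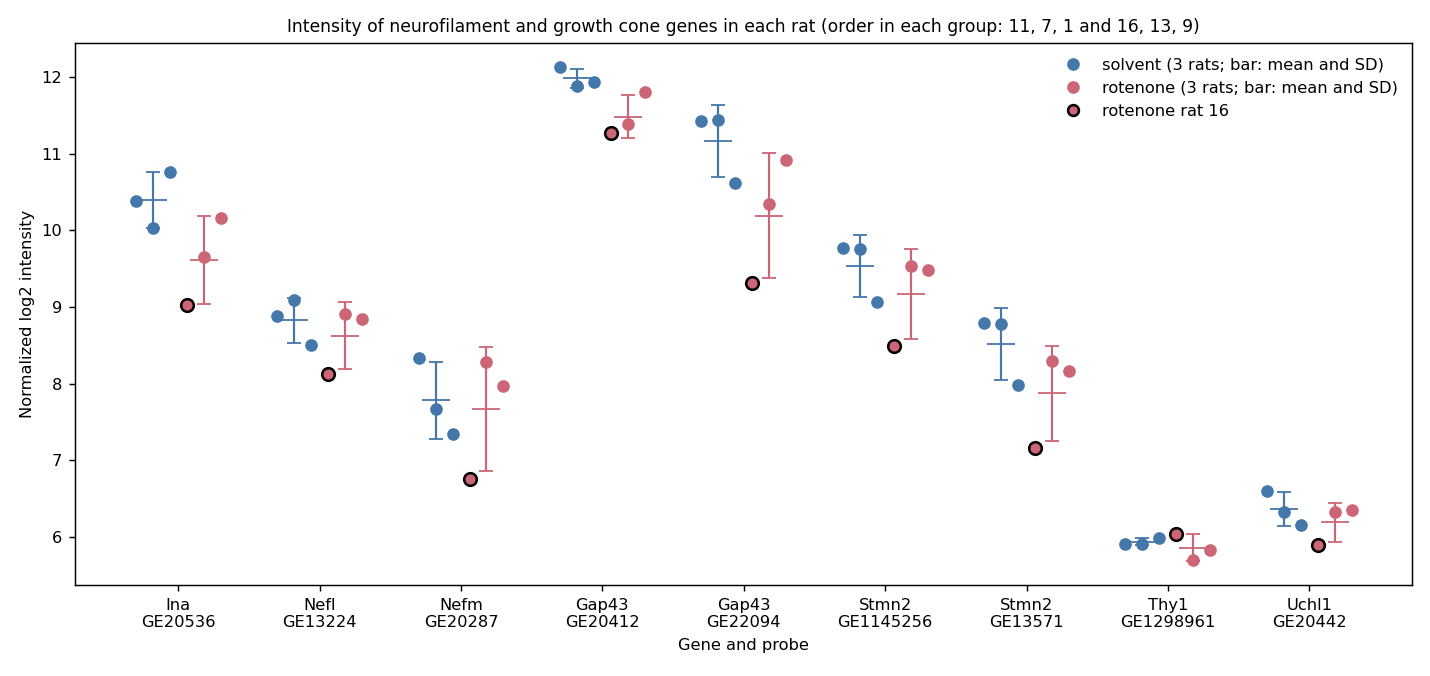
Normalized log2 intensity (y axis) of each of the 9 probes (x axis), with 1 point per rat, 3 solvent and 3 rotenone rats; bars give the mean and SD of each group, and rotenone rat 16 is outlined. Rat 16 is the lowest point at each of the 8 tested probes, and the groups are apart at the brighter Gap43 probe, GE20412. Heights of different probes are not comparable.

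Among the filament genes, Ina had the largest difference. Probe GE20536 of Ina read 10.38, 10.03 and 10.76 in solvent rats 11, 7 and 1, and 9.02, 9.65 and 10.17 in rotenone rats 16, 13 and 9, as normalized log2 intensity. The groups overlapped: rotenone rat 9 lay above solvent rat 7, while rotenone rats 16 and 13 lay below every solvent rat. The means were 10.39 ± 0.36 and 9.61 ± 0.57 (SD, n = 3 each), a log2 difference of -0.78 ± 0.29 (SE) with a 95% interval from -1.42 to -0.14. In linear net signal, the authors' spot mean minus local background, the group means were 1351 and 739. The unadjusted p was 0.0219 and the adjusted p 0.895 in limma. An exact permutation test over the rats, two-sided, gave p = 0.2, and the smallest it can give with 3 against 3 is 0.1. Without rotenone rat 16 the difference was -0.48, and without rotenone rat 9 it was -1.06.

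Outside rotenone rat 16, the rotenone values of Nefl and Nefm lay within the range of the solvent rats. Nefl (probe GE13224) read 8.88, 9.09 and 8.51 in solvent rats 11, 7 and 1 and 8.12, 8.91 and 8.84 in rotenone rats 16, 13 and 9. Rat 16 alone lay below the solvent rats. The Nefl difference was -0.20 ± 0.24 (SE; 95% interval -0.74 to 0.34), and 0.05 without rotenone rat 16. Nefm (probe GE20287) read 8.33, 7.67 and 7.35 with solvent and 6.75, 8.28 and 7.97 with rotenone, in the same order of rats. The solvent rats already spread over much of the range, and rotenone rats 13 and 9 lay above 2 of the 3 solvent rats. The Nefm difference was -0.12 ± 0.38 (interval -0.96 to 0.72). It turned to 0.34 without rotenone rat 16, to 0.16 without solvent rat 11 and to 0.12 with arrays weighted by their quality. In the RefSeq table Nefl and Nefm are neighbours, with no protein-coding gene between them.

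The order of the solvent rats also differed among the filament genes. Solvent rat 1 had the highest Ina value of the 6 rats, at 0.37 above the solvent mean, and the lowest solvent values of Nefl (-0.32) and Nefm (-0.44). Rotenone rat 13 lay at -0.75 for Ina, 0.09 for Nefl and 0.50 for Nefm. Likeness was measured as the root mean square distance of centred log2 values over the 6 arrays, a description over 6 points that share the arrays. Ina and Nefm were the least alike of all pairs of tested probes, at 0.604, and Nefl and Nefm were at 0.341.

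**Figure D2:**
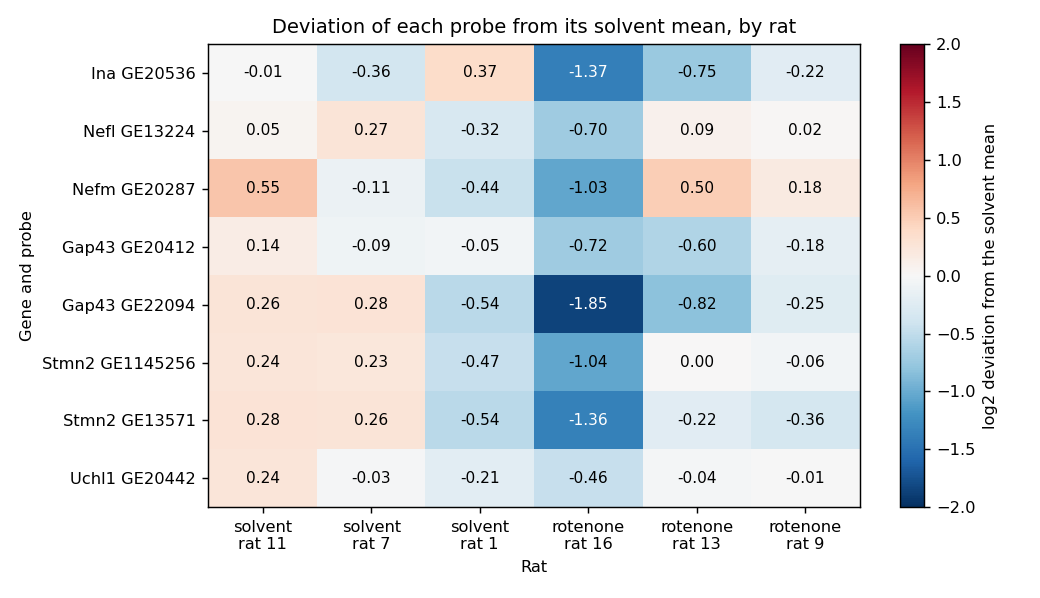
Deviation of each tested probe (rows) from its mean over the 3 solvent rats, in log2 units, for each of the 6 rats (columns); blue is below and red above the solvent mean. The column of rotenone rat 16 is below 0 in every row, from -0.46 to -1.85, while rat 13 is at -0.75 for Ina and 0.50 for Nefm. Each solvent rat is part of the mean it is set against.

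Gap43 was lower in mean at both of its probes, by unequal amounts. The brighter probe, GE20412, read 12.13, 11.89 and 11.93 in solvent rats 11, 7 and 1, and 11.26, 11.38 and 11.80 in rotenone rats 16, 13 and 9. No rotenone rat reached the lowest solvent rat, although rat 9 came within 0.1 of it, so the groups did not overlap. Its difference was -0.50 ± 0.19 (SE; 95% interval -0.91 to -0.08), and the exact permutation p of 0.1 is the smallest this design allows. The second probe, GE22094, read 11.43, 11.44 and 10.62 with solvent and 9.31, 10.35 and 10.91 with rotenone. There the groups overlapped, since rotenone rat 9 lay above solvent rat 1. Its difference was -0.97 ± 0.37 (interval -1.80 to -0.14), and its mean net signals were 2338 with solvent and 1182 with rotenone. The unadjusted p values were 0.0236 and 0.0258, and the adjusted p in limma was 0.895 for both.

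Both Gap43 probes carry the same RefSeq accession, and the sources used here do not give where each lies in the transcript. Their largest disagreement was in rotenone rat 16, at -0.72 for GE20412 and -1.85 for GE22094 against the solvent mean. In rotenone rat 13 they lay at -0.60 and -0.82, and in rat 9 at -0.18 and -0.25. All 3 rotenone rats were thus below the solvent mean at both probes. The probes also disagreed among the solvent rats. Solvent rats 11, 7 and 1 lay at 0.14, -0.09 and -0.05 for GE20412 and at 0.26, 0.28 and -0.54 for GE22094. The distance between the Gap43 probes over all rats was 0.482. Without rotenone rat 16 the differences were -0.39 and -0.53. With any 1 rat left out, GE20412 ranged from -0.66 to -0.39 and GE22094 from -1.33 to -0.53.

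Stmn2 also had 2 probes with lower means and wide spread. The brighter, GE1145256, read 9.77, 9.76 and 9.07 in solvent rats 11, 7 and 1 and 8.49, 9.53 and 9.48 in rotenone rats 16, 13 and 9. Rotenone rats 13 and 9 lay inside the solvent range. The difference was -0.36 ± 0.30 (SE; 95% interval -1.03 to 0.30), and -0.03 without rotenone rat 16. The dimmer probe, GE13571, read 8.80, 8.78 and 7.98 with solvent and 7.16, 8.30 and 8.16 with rotenone. Here too rats 13 and 9 fell between solvent rat 1 and the other solvent rats. Its difference was -0.64 ± 0.32 (interval -1.35 to 0.07), with -0.29 left when rotenone rat 16 was taken out. The 2 Stmn2 probes were the most alike pair of all tested probes, at a distance of 0.148, followed by Nefl with the brighter Stmn2 probe at 0.155.

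Uchl1 and Thy1 were dim on these arrays. Probe GE20442 of Uchl1 had net signals of 43.2, 27.9 and 17.8 in solvent rats 11, 7 and 1 and 3.53, 25.5 and 24.5 in rotenone rats 16, 13 and 9. All 3 solvent arrays and 2 of the rotenone arrays were above background, with rat 16 below it. The normalized difference was -0.17 ± 0.19 (SE; 95% interval -0.60 to 0.26), and -0.03 without rotenone rat 16. Near background this size depends on the background correction. With plain subtraction and a floor of 1 it was -0.88, with a smaller offset of 16 it was -0.32, and in the authors' scaled values, with solvent rat 7 in probe order, it was -0.62. Thy1 had net signals of 4.71, 4.53 and 8.21 with solvent and 8.94, -4.23 and 1.29 with rotenone. None of its 6 spots was well above background, so Thy1 has no measured level or difference here.

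**Figure D3:**
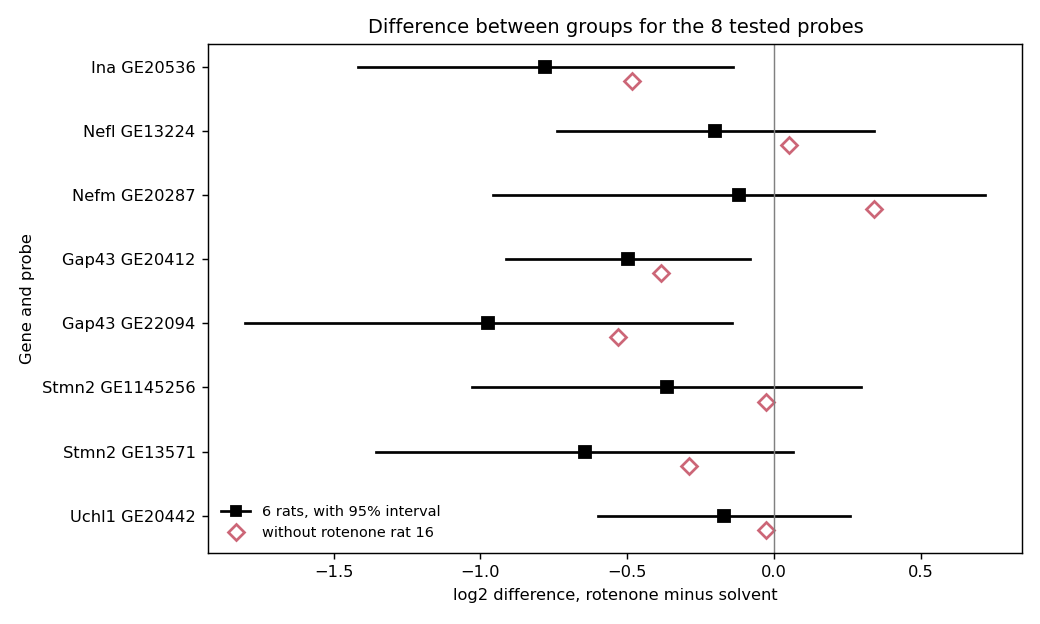
Log2 difference of rotenone minus solvent (x axis) for the 8 tested probes (rows), as squares with 95% intervals over 6 rats, and as open diamonds without rotenone rat 16. The intervals of Ina and both Gap43 probes lie below 0, and without rat 16 Nefl (0.05) and Nefm (0.34) lie above 0 and the brighter Stmn2 probe at -0.03.

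Rotenone rat 16 was the lowest of the 6 rats at all 8 tested probes, as it was at 26.2% of all probes, and it was the highest at 29.4% of all probes. Over the 6 tested genes its median deviation from the solvent mean was -0.88, against -0.02 in rat 13 and -0.03 in rat 9, and 0.19, -0.06 and -0.26 in solvent rats 11, 7 and 1. Over all tested probes the median deviation of each rat was within 0.01 of 0, which the quantile normalization between arrays largely fixes in advance. Whether the low net signal of this array bears on its low values was not tested. In such tissue, fewer neurons in a sample and less RNA per neuron cannot be told apart. Solvent rat 11 had the highest value at 5 of the 8 probes, solvent rat 7 at 2 and solvent rat 1 at 1.

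As with the members, no tested gene of the related lists passed the test. Of 13 other intermediate filament and filament-linking genes, 4 were tested and 0 called, with 3 lower and 1 higher and a median of -0.09. That median was 0.19 without rotenone rat 16, 0.10 without solvent rat 1 and -0.43 without rotenone rat 13. Peripherin (Prph), a filament protein of peripheral and some central neurons, differed by -0.04, Gfap of astrocytes by -0.15, and vimentin (Vim) by 0.47 ± 0.37 (SE). Plec, which links filaments to other structures, differed by -0.35. Without rotenone rat 16 the differences of Prph, Gfap, Vim and Plec were 0.21, 0.17, 0.66 and 0.01. The Prph values were 10.67, 11.03 and 11.38 in solvent rats 11, 7 and 1 and 10.48, 11.69 and 10.79 in rotenone rats 16, 13 and 9. Peripherin was therefore highest in rotenone rat 13, a rat with low Ina, and lowest in rat 16.

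Of 36 other growth cone and axon outgrowth genes, 15 were tested and 0 called, with 9 lower, 6 higher and a median of -0.11. An unadjusted p below 0.05 in limma was reached by 3 of them, Basp1, Rtn4 and Cap1, each lower. Over all probes, 2.95% were lower at that level. Cap1 was dim, above background on 3 of the 6 arrays, and differed by -0.38 ± 0.17 (SE). Basp1, a membrane protein of growth cones that resembles Gap43 in its charge and its binding of calmodulin, read 9.60, 9.82 and 10.05 with solvent and 8.83, 9.12 and 9.62 with rotenone. Only rotenone rat 9 reached the solvent range, as with Ina. The Basp1 difference was -0.63 ± 0.22 (SE), with an unadjusted p of 0.0179 and an adjusted p of 0.895 in limma, and -0.45 without rotenone rat 16. Rtn4, which encodes the outgrowth inhibitor Nogo, differed by -0.60 ± 0.23, and by -0.49 without that rat. Crmp1 and Dpysl3, which relay guidance signals to microtubules, differed by -0.11 and 0.10, and the actin-severing Cfl1 by 0.25. With a rat left out the median of this list lay between -0.16 and -0.01, the latter without rotenone rat 16.

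Kinases and motors that act on neurofilaments had 9 of 22 genes tested and 0 called, with 7 lower, 2 higher and a median of -0.16. Leaving out rotenone rat 16 gave -0.09, and leaving out rotenone rat 13 gave -0.24. Gsk3b, a kinase able to phosphorylate neurofilament proteins, had a difference of -0.50 ± 0.23 (SE), or -0.33 with rotenone rat 16 left out. Partners and regulators of Gap43 had 9 of 18 tested and 0 called, with 3 lower, 6 higher and a median of 0.04, which lay between -0.01 (without solvent rat 11) and 0.09 (without rotenone rat 13) with a rat left out. Calm3, a calmodulin gene, differed by -0.45 ± 0.22, and by -0.32 without rotenone rat 16.

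Axonal adhesion and guidance genes had 13 of 44 tested and 0 called, with 7 lower, 6 higher and a median of -0.05. The median was -0.18 without rotenone rat 16, -0.17 without solvent rat 7, -0.16 without rotenone rat 13 and -0.10 without solvent rat 11, and -0.02 without solvent rat 1. Itgb1, a beta integrin, had a difference of -0.67 ± 0.28 (SE). It was -0.92 without rotenone rat 16, so its low values were in other rats. Negr1, a lipid-anchored adhesion protein, differed by -0.31 ± 0.19. Of 18 ubiquitin-processing genes beside Uchl1, 4 were tested and 0 called, with 2 lower, 2 higher and a median of -0.05, between -0.17 (without solvent rat 1) and 0.05 (without rotenone rat 13) with a rat left out. Rps27a, whose product is cleaved to ubiquitin and a ribosomal protein, differed by -0.53 ± 0.29, and by -0.18 without rotenone rat 16. Atxn3, a deubiquitinase, differed by 0.31 ± 0.22, and by 0.06 without that rat.

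**Figure D4:**
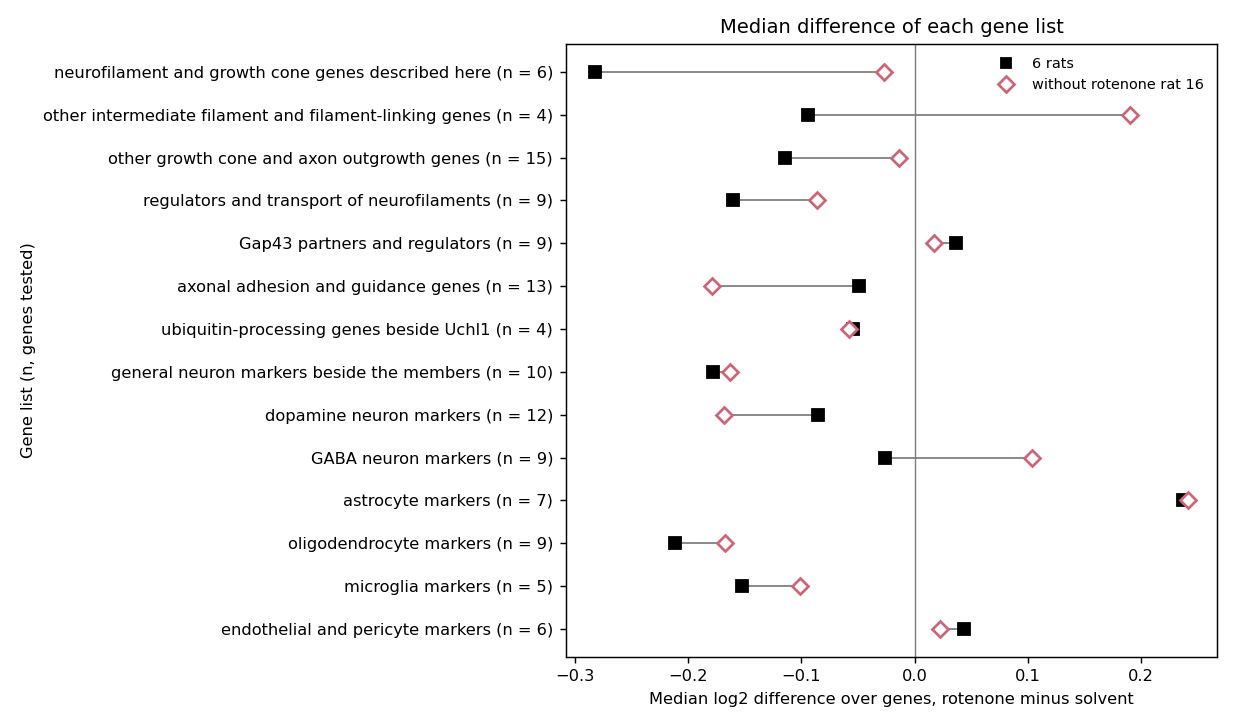
Median log2 difference over the tested genes of each list (x axis, rotenone minus solvent), for all 6 rats (squares) and without rotenone rat 16 (diamonds); n is the number of genes tested, and lists with 4 or more are shown. Without rat 16 the list described here moves from -0.28 to -0.03, the other filament genes from -0.09 to 0.19, and the dopamine neuron markers from -0.09 to -0.17. Leaving out other rats is not drawn.

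Markers of the cell types in the region were set beside these values, and their part in the differences was not tested. Of 20 general neuron markers that are not among the 9 genes, 10 were tested and 0 called, with 9 lower, 1 higher and a median of -0.18. The median was -0.16 without rotenone rat 16, -0.35 without solvent rat 1 and -0.30 without rotenone rat 13. Syn2, of synaptic vesicles, differed by -0.40 ± 0.17 (SE) and the neuronal RNA-binding gene Elavl3 by -0.50 ± 0.21. The summed level of the neuron list was 12.14 to 12.34 in log2 units with solvent and 12.13 to 12.18 with rotenone. For dopamine neuron markers (12 of 16 tested, 7 lower, 5 higher, median -0.09) it was 14.92 to 15.19 and 14.78 to 15.23. The highest value was that of rotenone rat 16, and such sums are carried by the brightest genes. By median deviation from the solvent mean, rotenone rat 16 was the lowest rat for the neuron list, at -0.41. For the dopamine list it was at -0.16 and rotenone rat 13 at -0.29. The median difference of the dopamine list went to -0.17 when rotenone rat 16 was left out, and to -0.04 when rotenone rat 9 was. Sncg and Nr4a2, the dopamine list's lowest p values, differed by -0.67 ± 0.23 and -0.79 ± 0.32, and by -0.38 and -0.46 without rotenone rat 16.

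The remaining marker lists had no called gene. GABA neuron markers (9 of 9 tested) had a median of -0.03 and summed levels of 11.74 to 12.00 with solvent and 11.95 to 12.18 with rotenone. Gad2 was at -0.41 but dim, above background on 3 of the 6 arrays, and Calb2 was at 0.39 (0.10 without rotenone rat 16). Astrocyte markers (7 of 12 tested, 2 lower, 5 higher) had a median of 0.24 and summed levels of 13.80 to 13.88 and 13.85 to 14.05, with Gjb6 at 0.32 and Aldh1l1 at 0.26. Their markers Aqp4 and Slc1a2 were near background on every array. Oligodendrocyte markers (9 of 15 tested, 7 lower, 2 higher) had a median of -0.21 and summed levels of 12.30 to 12.83 and 12.18 to 12.53, with Mal at -0.66 and Sox10 at -0.42. Microglia markers (5 of 12 tested, 4 lower, 1 higher) had a median of -0.15 and summed levels of 10.96 to 11.18 and 10.88 to 11.10, with C1qb at -0.32 and P2ry12 at -0.21. Endothelial and pericyte markers (6 of 13 tested) had a median of 0.04, with summed levels of 10.41 to 10.53 and 10.36 to 10.86, with Anpep at 0.43 and Pdgfrb at -0.20. Markers of meninges, choroid plexus and ependyma (3 of 10 tested, each higher) had a median of 0.26, with Folr1 at 0.26 and Igf2 at 0.44, and the 1 tested blood cell marker, Alas2, differed by 0.41.

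These medians also moved with single rats. With a rat left out the GABA neuron median lay between -0.19 (rotenone rat 13) and 0.10 (rotenone rat 16), and the astrocyte median was 0.12 without solvent rat 11. For oligodendrocytes it was -0.10 without solvent rat 7, -0.33 without solvent rat 11 and -0.40 without rotenone rat 13. The microglia median was -0.27 without solvent rat 11, -0.05 without rotenone rat 9 and -0.02 without solvent rat 1. Among vessel markers it ranged from -0.06 without solvent rat 11 to 0.11 without solvent rat 1, and among those of meninges, choroid plexus and ependyma from 0.05 without rotenone rat 16 to 0.41 without rotenone rat 9. Alas2 was at 0.02 without rotenone rat 13 and at 0.64 without rotenone rat 9.

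Genes with the most similar profile over the rats were sought among the named genes above background on all 6 arrays, 1709 of them for the median profile, 1713 for each of Ina, Nefl, Nefm, Gap43 and Stmn2, and 1714 for Uchl1. The 5 nearest to the median profile of the tested members were Cyb5r3 (distance 0.0590), Cand1 (0.0807), Galnt11 (0.0889), Hsbp1 (0.0943) and Zwint (0.104). Cyb5r3, a cytochrome b5 reductase, read 8.30, 8.09 and 7.72 in solvent rats 11, 7 and 1 and 7.15, 8.11 and 7.97 in rotenone rats 16, 13 and 9. It repeats the low value of rat 16 and the lower value of solvent rat 1. The nearest gene to Ina was Sfxn5 (0.116), to Nefl Gucy1b1 (0.0581), to Nefm the synaptic vesicle gene Vamp2 (0.181), to the brighter probe of Gap43 Cst6 (0.0658), to that of Stmn2 the superoxide dismutase Sod1 (0.0633) and to Uchl1 Nup88 (0.0588). Ina and Nefm had no neighbour as close as the other genes did.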

How the data were processed

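Each rat gave 1 array. The deposited scanner files hold linear intensity values per spot: the spot mean, the local background median, their difference, and that difference scaled to about the array median by the authors' software. Which scanner software was used the sources here do not give. Spots were joined by grid position and probe name. Probes were named by RefSeq accession without version (GRCr8 table, used for names), which named 4675 of 33849 probes. Background was corrected with normexp (offset 50), control spots were dropped, and the log2 values were then quantile-normalized between arrays. The offset draws differences of dim probes towards 0.

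The groups were compared in R 4.3.3 with limma 3.58.1 by two-sided tests, adjusted over 16708 probes after Benjamini and Hochberg. Tested probes were above background on at least 3 of 6 arrays, that is, without the scanner's mark for near background or for masking. The script was tested on simulated data. The 6 arrays limit the precision.

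The members, lists and settings were chosen with earlier results of these data known. Named are all members, the 2 genes of lowest p in each list, the nearest genes by profile, and a few list genes picked after their values were seen (Prph, Gfap, Crmp1, Dpysl3, Cfl1, Cap1). Of the genes this rule takes, some are not reported here. Every spot was kept, because the scanner marks nearly all bright spots as irregular. The deposited value table holds the scaled intensity, on a linear scale with column medians of 0.994 to 1.00. Its column of solvent rat 7 equals the scanner file at 0.898% of probes, the others at 100%, so the table served as an alternative.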

Additional observations from a re-analysis of the deposited data

How the results depend on the processing

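No member probe was called in any of 128 values obtained under other settings or with a rat left out. Of these values, 118 were below 0. The count does not measure robustness, because all settings reuse the same arrays. Settings that changed only the filter on dim probes or the moderation of the test repeated the main differences, such as -0.78 for Ina. Their sign was thus fixed in advance. The share of all probes that stay below 0 was not determined. The 10 values above 0 were as follows. In the value table as deposited, where solvent rat 7 stands beside the wrong probes, Nefl was at 1.82, Nefm 0.78, Gap43 2.18 and 1.92, Stmn2 1.92 and 1.07, with a median of 1.30 over the genes and 0.63 over all probes. With array weights Nefm was at 0.12. With a rat left out Nefm ranged from -0.43 to 0.34, Nefl from -0.36 to 0.053, and the median over the genes from -0.44 to -0.03. The count of unadjusted p below 0.05 among the 8 probes was 3 at first, and 0 without rotenone rat 16, with plain subtraction, with the value table and in the ordinary test without moderation. The causes were not tested.

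Over all 16708 probes limma called 0 at the adjusted threshold, with 825 at an unadjusted p below 0.05, and the ordinary test also called 0. Leaving out marked spots called 2 of 4283 probes, and of the members it kept Uchl1 alone, at -0.10. With a rat left out the count ranged from 0 to 3, with 3 without solvent rat 1. No paired analysis was possible because the groups share no rat number. The header date of solvent rat 7 differs from that of the other 5 files, so a date block would equal leaving that rat out. Probes near background, such as Uchl1, are limited by their signal.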
